A study of Homo sapiens with 7 samples.

Results

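CUT&RUN peaks of an Rb antibody and of a non-binding IgG2a antibody were compared in palbociclib-treated parental ZR-75-1 cells. The comparison took every peak in the 2 Rb lists and the single IgG2a list of these cells, 19303 of the 21231 peaks in the 7 lists of the series. Rb replicates 1 and 2 held 8399 and 8256 peaks, and IgG2a held 2648. ZR-75-1 is an established hormone receptor-positive breast cancer cell line. All 3 cultures were parental, without the RB1 knockout (KO) made in other cells of the series, and received 500 nM palbociclib, an inhibitor of the kinases CDK4 and CDK6, for 4 days. The Rb antibody was a mouse monoclonal, the control was mouse IgG2a, and the Rb replicates were independent cultures. The other lists came from the Rb antibody in DMSO-treated parental cells (996 and 816 peaks) and in RB1 KO cells with DMSO or palbociclib (65 and 51 peaks).

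Rb, the retinoblastoma protein, binds E2F transcription factors at gene promoters and restrains genes of DNA replication and mitosis. CDK4 and CDK6 phosphorylate Rb and release it, and their inhibitors leave it hypophosphorylated and bound to chromatin. In CUT&RUN, an antibody tethers a nuclease that releases nearby DNA, and an isotype control shows which fragments are released or retained without a target. Peaks in such a control are known to gather at open chromatin, at sequences that are repeated or poorly assembled, and in regions present in many copies.

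Of the 10 strongest IgG2a peaks outside promoters, 7 lay in tandem or repeated sequence and 4 had no CpG within 100 bp of the summit. Over all 1410 IgG2a peaks outside promoters, 32.1% lay in repeated and 10.5% in tandem sequence. The sequences below are hg38 plus-strand windows that reach 50 bp to either side of a peak's summit, the base with the highest fragment pileup, and capitals mark each CpG dinucleotide. The IgG2a examples were the non-promoter peaks ranked 1, 2, 3 and 7 and the promoter peaks ranked 1 and 5 by −log10 q in their sets, where q is the false discovery rate given by the peak caller. They are shown because they span the tandem repeats, a chromosome end and a CpG-rich promoter found in that list. Windows that touched an annotated UTR were not printed.
IgG2a, intergenic upstream of MEDAG, chr13:30844170-30844270: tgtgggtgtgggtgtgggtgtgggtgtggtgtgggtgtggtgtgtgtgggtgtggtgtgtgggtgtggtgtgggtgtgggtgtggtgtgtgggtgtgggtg
IgG2a, RTEL1 intron, chr20:63693531-63693631: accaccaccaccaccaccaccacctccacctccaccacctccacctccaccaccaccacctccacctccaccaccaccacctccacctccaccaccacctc
IgG2a, chromosome 2 end, chr2:10043-10143: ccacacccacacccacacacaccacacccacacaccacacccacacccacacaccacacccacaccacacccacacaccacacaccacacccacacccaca
IgG2a, intergenic upstream of NID1, chr1:236097246-236097346: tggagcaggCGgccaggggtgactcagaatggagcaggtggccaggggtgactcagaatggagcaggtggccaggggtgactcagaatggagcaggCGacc
IgG2a, PAK2 promoter, chr3:196811257-196811357: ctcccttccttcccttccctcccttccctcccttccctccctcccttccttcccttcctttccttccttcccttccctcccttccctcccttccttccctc
IgG2a, DHX32 and FANK1 promoter, chr10:125896044-125896144: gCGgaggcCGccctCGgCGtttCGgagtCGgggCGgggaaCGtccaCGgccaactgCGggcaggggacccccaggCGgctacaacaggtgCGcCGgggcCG

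The first 3 of these windows and the PAK2 window held no CpG. Around the chromosome 2 summit this held only for the printed bases, since within 100 bp of it CpG observed over expected, explained below, was 1.73, and that window met neither definition of a repeat used below. The chromosome 13 window was a run of tgtggg units, the RTEL1 window repeated acc and cctcca units, the chromosome 2 window alternated cacac and ccaca, and the NID1 window held copies of a unit of 29 bp that matched each other at 97.7% of bases. The DHX32 and FANK1 window differed from the other IgG2a examples, with 14 CpGs and 43.3% self-match at its best period. The Rb examples below were ranked 2, 5 and 10 among the promoter peaks called in both Rb replicates. The last pair are centred on IgG2a summits in peaks that overlapped an Rb region.
Rb, CENPX and LRRC45 promoter, chr17:82023046-82023146: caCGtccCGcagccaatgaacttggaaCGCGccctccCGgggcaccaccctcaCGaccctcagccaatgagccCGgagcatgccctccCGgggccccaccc
Rb, LPCAT3 promoter, chr12:7018737-7018837: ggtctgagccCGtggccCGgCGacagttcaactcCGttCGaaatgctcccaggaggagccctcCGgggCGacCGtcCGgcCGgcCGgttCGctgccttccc
Rb, SIVA1 promoter, chr14:104752713-104752813: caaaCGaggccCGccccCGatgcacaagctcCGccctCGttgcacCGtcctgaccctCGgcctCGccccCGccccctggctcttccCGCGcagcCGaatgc
IgG2a summit, KCTD5 promoter, chr16:2682786-2682886: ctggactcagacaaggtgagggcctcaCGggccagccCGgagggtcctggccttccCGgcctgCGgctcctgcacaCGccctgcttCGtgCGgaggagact
IgG2a summit, LTO1 promoter, chr11:69675071-69675171: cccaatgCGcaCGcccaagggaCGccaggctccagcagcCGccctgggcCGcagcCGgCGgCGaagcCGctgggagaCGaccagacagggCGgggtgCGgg

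The 3 Rb windows held 8, 12 and 12 CpGs, and the KCTD5 and LTO1 windows held 7 and 12. At KCTD5 the Rb region (chr16:2682161-2682766) overlapped the IgG2a peak but ended before the printed window, and at LTO1 the Rb region (chr11:69675151-69675659) took in the end of it. CENPX encodes a kinetochore and DNA repair protein, LPCAT3 a phospholipid acyltransferase, and SIVA1 a regulator of apoptosis.

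Far more sites were called with the Rb antibody than with IgG2a. On chromosomes 1 to 22 and X, Rb gave 8314 and 8171 peaks and IgG2a gave 1724, a ratio of 4.78 between the Rb mean and IgG2a. The Rb peaks covered 4.40 and 4.20 Mb and the IgG2a peaks 0.334 Mb. Both Rb lists lay close to their mean of 8242 ± 101.1 peaks (SD, n = 2), and the gap to IgG2a was many times the spread between replicates. With 1 IgG2a library no test between antibodies could be made. Intervals given below are exact binomial 95% intervals and cover counting error only.

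IgG2a peaks were narrow. Their median width was 160.5 bp, against 459 and 445 bp for Rb, and 73.4% were at most 200 bp wide, against 11.3% and 12.2% of Rb peaks. Only 11 IgG2a peaks (0.638%) exceeded 800 bp, compared with 1504 and 1356 Rb peaks (18.1% and 16.6%). Wider Rb peaks were more often at promoters, 67.5% and 69.6% at widths up to 200 bp and 93.5% in both lists above 800 bp.

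Fold enrichment differed less than width. Fold enrichment is the pileup of fragments at the summit plus 1, divided by the local background plus 1, as the peak caller wrote it. The median was 6.93 and 6.86 for Rb and 4.83 for IgG2a. The underlying quantities differed more. The median pileup was 16 and 17 fragments at Rb summits and 7 at IgG2a summits, and the median background was 1.453 and 1.563 fragments for Rb and 0.609 for IgG2a. The Rb peaks were called against an IgG control. The background at IgG2a summits moved in steps of the size that its own fragments in a window of 10000 bp would give (a step of 0.00648 corresponds to fragments of 129.6 bp, near the narrowest peak of 129 bp). The 2 kinds of fold are therefore ratios to different backgrounds. Of Rb peaks, 72.0% and 71.5% reached a −log10 q of 5, compared with 13.75% of IgG2a peaks.

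Promoters held most Rb sites and a minority of IgG2a sites. A promoter peak overlapped the stretch from 2000 bp upstream to 500 bp downstream of a protein-coding start site. The promoter share was 85.7% (interval 84.9 to 86.4%) and 85.8% (85.0 to 86.5%) for Rb, and 18.2% (16.4 to 20.1%, 314 peaks) for IgG2a. Promoters make up 2.904% of these chromosomes. IgG2a peaks were thus also over-represented there, but 67.5 percentage points less often than Rb peaks. Intergenic sequence held 46.8% of IgG2a peaks and introns 27.7%, compared with 7.63% and 3.78% of peaks in Rb replicate 1 and 7.59% and 3.525% in replicate 2. Exons outside promoters held 4.99% of IgG2a peaks, 1.78% and 1.82% of Rb peaks and 1.78% of windows placed every 100 kb along the genome.

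**Figure D1:**
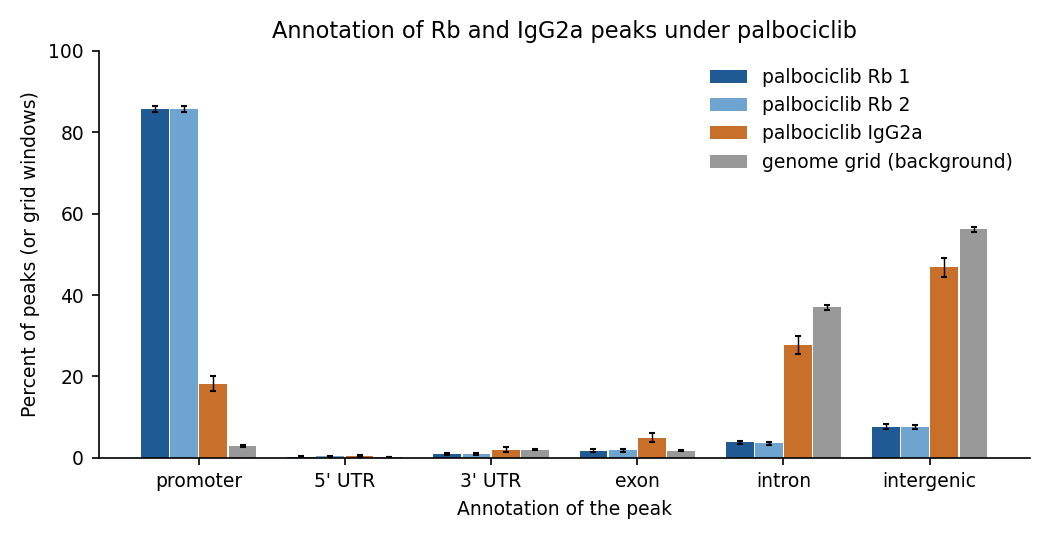
Percent of peaks (vertical axis) in each annotation class (horizontal axis) for both Rb replicates, IgG2a and the genome grid of windows every 100 kb, with bars from 0 and exact binomial 95% intervals as error bars. The Rb replicates reach 85.7% and 85.8% at promoters, and IgG2a lies nearer to the grid, with 46.8% intergenic and 27.7% intronic peaks.

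CpG content separated the lists in the same way. CpG observed over expected compares the CpG dinucleotides in a sequence with the number its C and G content would give by chance. In windows of 100 bp to either side of the summit its median was 0.865 and 0.870 for Rb (0.867 ± 0.00306, SD, n = 2) and 0.392 for IgG2a, and it was 0.240 over the whole of these chromosomes. Median GC content was 70.15% in both Rb lists and 61.2% for IgG2a, against 40.9% of the chromosomes. IgG2a summits therefore lay between the genome and Rb in both measures. Values of at least 0.6 were found at 88.8% and 89.1% of Rb summits and 32.4% of IgG2a summits.

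This difference depended on annotation. At promoters the IgG2a median was 0.821, close to the 0.880 and 0.883 of Rb promoter peaks, whereas at other sites it was 0.319 compared with 0.737 and 0.751 for Rb. The gap between the Rb mean and IgG2a was 0.0605 at promoters and 0.425 elsewhere. The median was 0.720 at protein-coding start sites and 0.172 in windows of the same size every 100 kb along the genome. Non-promoter IgG2a sites thus lay below Rb sites and above the genome, with 22.1% of them at 0.6 or more, compared with 4.53% of the genome windows.

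**Figure D2:**
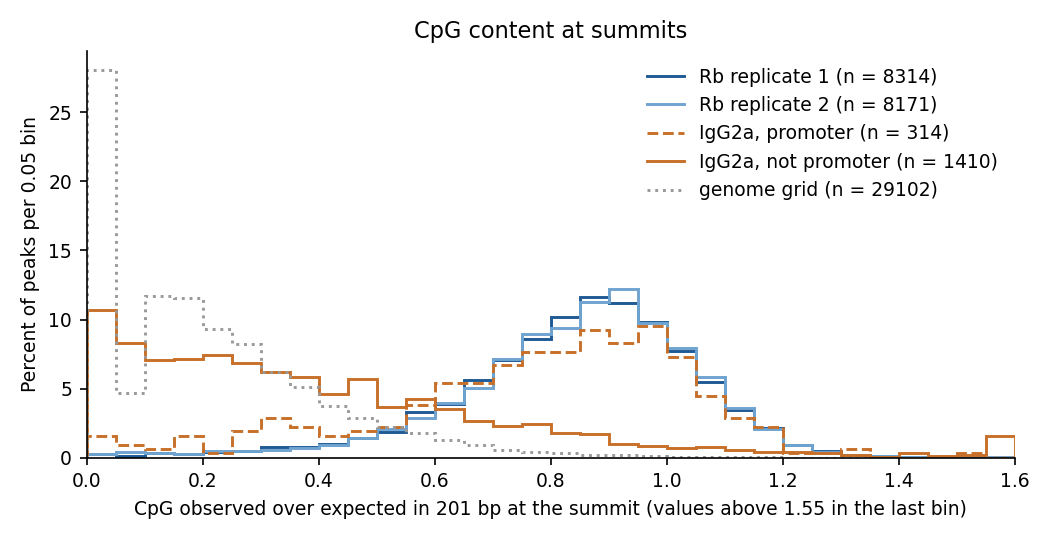
Percent of peaks in each 0.05 step of CpG observed over expected (horizontal axis, 100 bp to either side of the summit) for both Rb replicates, IgG2a promoter peaks, other IgG2a peaks and the genome grid. The IgG2a promoter line follows the Rb lines, with a median of 0.821, and the other IgG2a peaks have a median of 0.319.

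E2F binding words were searched as TTTCCCGC and TTTGGCGC on both strands. One of them lay within the summit window of 296 of 8314 and 311 of 8171 Rb peaks (3.56% and 3.81%), and of 4 of 1724 IgG2a peaks (0.232%, interval 0.06325 to 0.593%). All 4 of these IgG2a peaks were at promoters, and 0 of 1410 other IgG2a peaks held a word, which allows a share of up to 0.261%. The share was 1.61% at protein-coding start sites and 0.151% in the genome grid. In the Rb lists it was 4.81% and 4.94% among peaks with a −log10 q of at least 10, and 2.296% and 2.619% among peaks under 2.

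Repeats were frequent among called IgG2a peaks and rare among called Rb peaks. The Rb lists were called against an IgG control, which lowers the chance of a call where the control is strong. Its part in this difference was not tested. A window was called repeated when over 50% of its 31-base words occurred more than once in hg38, and tandem when it matched itself at 80% or more of bases after a shift of at most 60 bp. Repeated windows made up 27.4% of IgG2a peaks (interval 25.3 to 29.6%) and 2.25% and 2.08% of Rb peaks, against 16.05% of the genome grid. Tandem windows made up 8.99% of IgG2a peaks (155 peaks, 7.68 to 10.4%), 0.120% and 0.135% of Rb peaks (10 and 11 peaks) and 0.148% of the grid. With both kinds set aside, 292 IgG2a peaks (16.9%) were at promoters and 932 (54.1%) were at unique sequence outside them.

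The tandem peaks were the stronger IgG2a peaks. Their median fold was 6.495, compared with 4.74 at unique promoters and 4.83 at other unique sites, and 83 of 155 (53.55%) lay within 5 Mb of a chromosome end. Such ends make up 7.59% of the chromosomes and held 18.0% of all IgG2a peaks and 14.91% and 15.04% of Rb peaks. Tandem windows were 1.78% of IgG2a peaks with a −log10 q under 2 and 46.4% of the 97 peaks at 10 or more. Over the same classes the promoter share of IgG2a peaks went from 23.1% to 5.155%, whereas that of Rb peaks went from 68.6% and 72.4% to 90.9% and 90.8%.

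**Figure D3:**
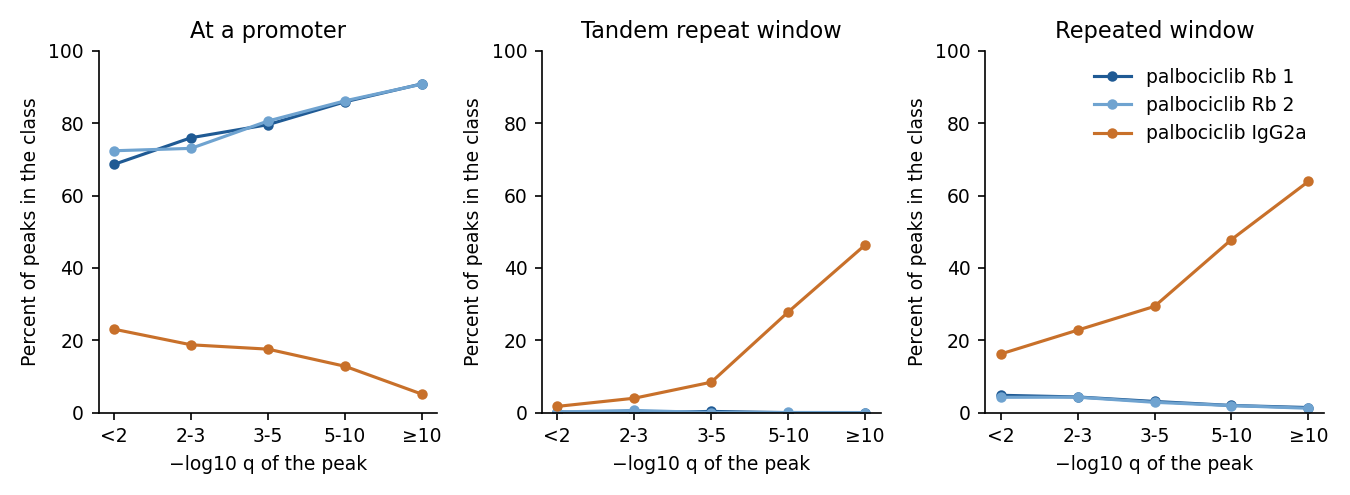
Percent of peaks (vertical axes) that were at a promoter, in a tandem repeat window or in a repeated window, by class of −log10 q (horizontal axis), with a line for each list. IgG2a tandem windows reach 46.4% and its promoter peaks 5.155% in the highest class, where Rb peaks are at promoters in 90.9% and 90.8%.

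The 10 IgG2a non-promoter peaks with the highest −log10 q had folds of 9.99 to 39.7 and pileups of 43 to 165 fragments. Of these, 7 of 10 were in repeated windows and 5 of 10 lay within 5 Mb of a chromosome end. The shares over all 1410 non-promoter IgG2a peaks were 32.1% and 19.6%. None of the 10 overlapped an Rb peak, but overlap was rare in their classes, 0.867% of all intergenic and 0.837% of all intronic IgG2a peaks. The peak with the highest −log10 q (203) lay on chromosome 13 at 30844080 to 30844357, at −62051 bp from the nearest start site, that of MEDAG (negative values are upstream), with a fold of 36.6 and a pileup of 165. The next was in an intron of RTEL1, which encodes a helicase that maintains telomeres, at chr20:63693456-63693735, with a fold of 27.6 and a pileup of 120. The third, at chr2:10010-10191, was at the very start of the assembled chromosome and had the highest fold of all IgG2a peaks on chromosomes, 39.7. Others lay on chromosomes 1, 4, 16 and 19, with folds of 22.1 at chr1:246817949-246818081 in the pseudogene KIF28P and 18.6 at chr4:153129414-153129857 upstream of TRIM2.

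The 10 strongest IgG2a promoter peaks were weaker, with folds of 5.855 to 17.8 and pileups of 11 to 30, and 6 of 10 were in tandem or repeated windows. None overlapped an Rb peak. Of all 314 IgG2a promoter peaks, 32.8% overlapped an Rb peak, 6.37% were in repeated windows and 2.23% in tandem windows. The peak at the promoter of PAK2, a serine/threonine kinase that acts downstream of small GTPases, had a fold of 17.8 at chr3:196811202-196811391. The LGMN peak (legumain, a lysosomal protease) had a fold of 13.0 and lay at −1783 bp from the start site in a CpG-rich triplet repeat. The peak of WNT5B, a secreted Wnt ligand, had a fold of 10.5, and that of FOXK2, a forkhead transcription factor, had a fold of 10.4. The remaining 6 were at DHX32 and FANK1, CPNE8, POTEH, TTYH1, TSPAN9 and PHKG2, with folds of 8.79, 7.97, 8.27, 7.18, 5.855 and 6.77.

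The 10 strongest Rb promoter peaks had no IgG2a peak, where 1.35% of all promoter peaks called in both Rb replicates overlapped one. The top site lay between DTL, which encodes a receptor of a ubiquitin ligase active in S phase, and INTS7, at chr1:212035079-212036197. Its pileups were 240 and 266 fragments over backgrounds of 3.875 and 2.605, giving folds of 49.4 and 74.1. The CENPX and LRRC45 site had pileups of 266 and 253 and folds of 59.7 and 54.1. The site of KPNB1, a nuclear import receptor, had pileups of 187 and 181 and folds of 64 and 59.0. The promoters of NUDT8, STARD9, LPCAT3, FTSJ3 and PSMC5, DGLUCY and RPS6KA5, RELL1 and SIVA1 completed this set. At E2F1, a canonical partner of Rb, the pileups were 113 and 106 fragments, with folds of 57.7 and 52.4 and no IgG2a peak.

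Few sites were called with both antibodies. Regions called in both Rb replicates, 6644 on chromosomes, overlapped an IgG2a peak in 89 cases (1.34%, interval 1.077 to 1.646%), and the share was 1.35% at promoters and 1.27% elsewhere. Conversely, 116 of 1724 IgG2a peaks overlapped a peak of either Rb replicate (6.73%, 5.591 to 8.015%). These overlaps were reached after the authors had called Rb peaks against an IgG control, which lowers the chance that a site strong in the control is called. Of Rb peaks, 47.55% and 45.43% had a background within 0.001 of a whole multiple of one step, as a whole number of control fragment ends would give. The step was the one between 0.3 and 0.8 with the largest share of values on it, and it implied a control of 9.46 and 9.48 M fragments (M, 1000000). The floor of the IgG2a list, scaled with the same assumptions, implied 9.43 M. The methods of the study call the control a matched IgG without naming the library. Whether it was this IgG2a library cannot be settled from the lists.

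Promoter sites made up most of the shared IgG2a peaks, 103 of 116. At promoters 32.8% of IgG2a peaks (27.6 to 38.3%) overlapped an Rb peak, compared with 0.837% in introns, 0.867% in intergenic sequence and 3 of 155 tandem peaks. Shared Rb regions had more background than the others, with medians of 3.39 and 3.46 fragments against 1.453 and 1.563. They also had more pileup, 32 in both replicates against 19 and 20, and their folds of 7.42 and 7.75 were close to the 8.13 and 7.84 of the other regions. The background comes from an IgG control, so picking regions with an IgG2a peak favours a higher background. A call over more background also needs more pileup. Where Rb and IgG2a summits lay within 50 bp of each other, at 22 sites in each replicate, the background was 8.5 and 8.999 control ends, compared with 3 over all Rb peaks. On chromosomes, 8 and 9 IgG2a peaks overlapped the DMSO Rb lists, which held 922 and 753 peaks there, and 2 and 1 overlapped the RB1 KO lists, which held 4 and 5.

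Among IgG2a peaks that overlapped an Rb region called in both replicates, the 10 with the highest −log10 q were mostly at promoters. Rb gave the larger pileup at those promoters. Sites had to be called with Rb over an IgG control to enter this set, which favours a larger Rb pileup. The pileups below therefore describe the sites and do not test the antibody. At the promoter of SRSF1, a splicing factor, IgG2a had a pileup of 10 and Rb had 72 and 65, with folds of 6.47 for IgG2a and 23.8 and 20.1 for Rb. The promoter of VAPA, an endoplasmic reticulum tethering protein, had 9 fragments with IgG2a and 57 and 53 with Rb. The promoter of PPP1R12B, a myosin phosphatase subunit, had 12 with IgG2a and 132 and 126 with Rb. The sites at NDUFV1, MAP3K21, SLC2A13 and KCTD5 had IgG2a folds of 4.99, 5.88, 6.264 and 5.645. Those sites had Rb folds of 4.84 and 5.78, 8.21 and 10.1, 5.74 and 10.6, and 9.09 and 9.96.

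At the first 2 of these 10 sites the fold was higher with IgG2a than with Rb. The same held in replicate 1 at NDUFV1 and SLC2A13. These folds are ratios to different backgrounds and do not rank the antibodies. In the cluster of 17 annotated 5S ribosomal RNA genes at chr1:228610268-228646158, IgG2a had 4 peaks, all in repeated windows. Their pileups were 26 to 32 fragments and their folds 12.4 to 14.7. Each Rb list had 2 peaks there, with pileups of 19 to 43 and 11 to 43 fragments over backgrounds of up to 17.4 and 15.1. The IgG2a peak in the ACSL3 intron, at chr2:222866216-222866962, lay on a run of cytosines and had a fold of 15.5, against 2.47 and 3.09 for Rb. Pileups there were 22 with IgG2a and 23 and 13 with Rb, over Rb backgrounds of 8.72 and 3.53.

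Outside the chromosomes more peaks were called with IgG2a than with Rb. The Rb lists were called against an IgG control, which lowers the chance of a call where the control is strong. These counts therefore compare called peaks and not fragments. Sequences that are unplaced, unlocalised (assigned to a chromosome without a position) or decoys (added to an alignment reference to absorb reads from unassembled repeats) held 924 IgG2a peaks, 34.9% of that list (33.1 to 36.7%). They held 85 peaks in each Rb list, 1.01% and 1.03%. In the shorter lists of the Rb antibody the share was higher. It was 7.43% and 7.72% in DMSO-treated parental cells (74 and 63 peaks). In RB1 KO cells it was 93.85% with DMSO and 90.2% with palbociclib (61 and 46 peaks), so a high share was not particular to IgG2a. Decoys carried 618 of these IgG2a peaks, on 417 sequences of which 277 had a single peak. Unlocalised sequences carried 166 and unplaced ones 140. The unlocalised sequence chr14_GL000225v1_random held the most, 39 IgG2a peaks, compared with 1 and 3 Rb peaks.

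The Rb peaks on these sequences were mostly at IgG2a sites, 65 of 85 and 61 of 85 (76.5% and 71.8%), whereas 77 of 924 IgG2a peaks overlapped an Rb peak (8.33%). Their folds were low and their backgrounds high. Median fold was 2.18 and 2.14, with median pileups of 77 and 67 over median backgrounds of 28.1 and 22.4 fragments. IgG2a peaks outside the chromosomes lay on 477 sequences, against 44 in each Rb list. All of these IgG2a peaks together had a median fold of 6.55, with a median pileup of 14 over a background of 0.937. The Rb and IgG2a folds are ratios to different backgrounds here too. The decoys included 42 and 41 Rb peaks with median pileups of 298.5 and 253 over backgrounds of 193.6 and 111.5. Of the 42 and 41, 23 and 20 lay on 1 sequence, chrUn_KN707896v1_decoy, with folds of at most 2.01 and 1.99.

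IgG2a sites were spread unevenly over the chromosomes. Density was highest on chromosomes 16, 1 and 18, with 1.13, 1.10 and 1.08 peaks per Mb, and lowest on chromosomes 2 and X, with 0.116 and 0.173. Without repeated and tandem windows chromosome 16 had 0.5424 per Mb and came behind chromosomes 1, 18, 7, 17 and 12, with 0.7793, 0.759, 0.7091, 0.6486 and 0.6078. Chromosome 2 makes up 7.99% of the length and held 1.62% of IgG2a peaks, compared with 5.72% and 5.63% of Rb peaks. Rb density was highest on chromosome 19, the most gene-dense, at 11.2 peaks per Mb, where IgG2a had 0.546. Chromosome 18, which is gene-poor, held 5.05% of IgG2a peaks and 1.83% and 1.86% of Rb peaks. Over the 23 chromosomes Spearman's rho with protein-coding genes per Mb was 0.902 for Rb and 0.265 for IgG2a.

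**Figure D4:**
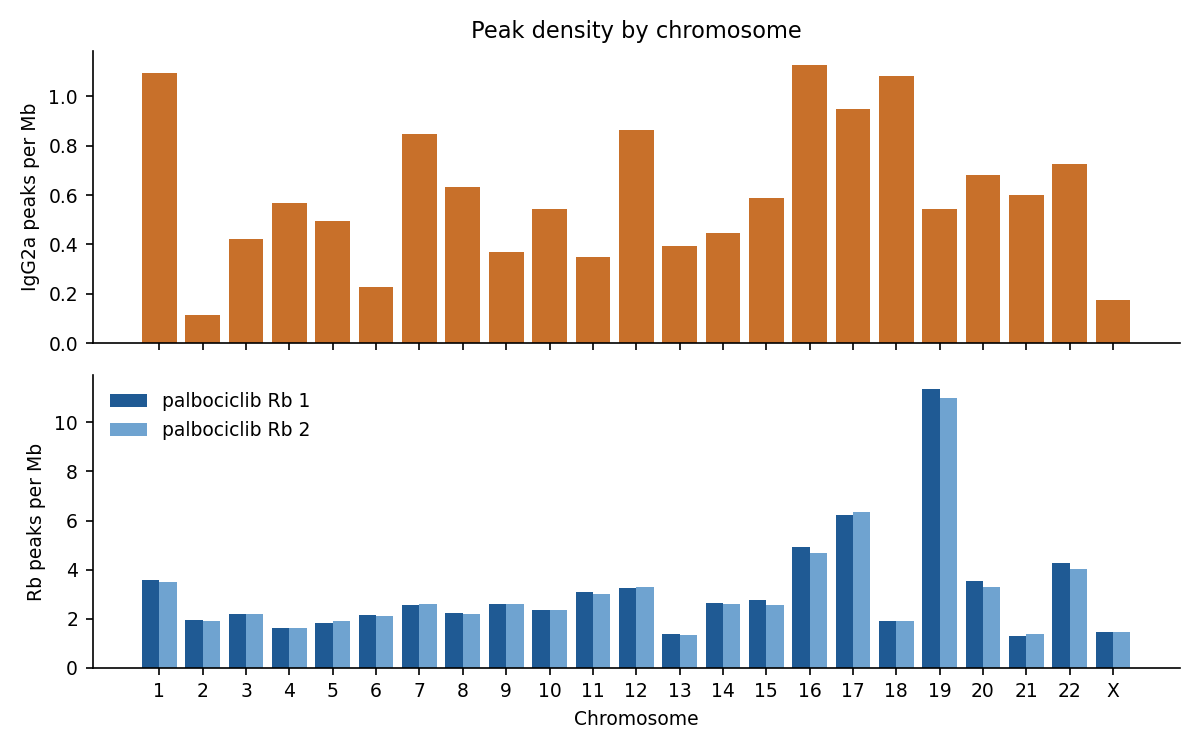
Peaks per Mb (vertical axes, separate scales from 0) on each of the 23 chromosomes for IgG2a (upper panel) and both Rb replicates (lower panel). IgG2a is highest on chromosomes 16, 1 and 18 and lowest on chromosome 2, and Rb is highest on chromosome 19.

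IgG2a density instead followed the background at Rb promoter peaks, a measure of control reads around them. Over chromosomes Spearman's rho between the 2 was 0.823, and it was 0.873 with only unique-window IgG2a peaks. In bins of 10 Mb with at least 10 Rb promoter peaks (265 bins) it was 0.705, compared with 0.167 for IgG2a peaks and protein-coding genes and 0.8515 for Rb peaks and genes. The 54 bins with 0 to 1 IgG2a peaks had a mean background of 1.185 ± 0.263 fragments (SD over bins), and the 44 bins with 10 or more had 2.37 ± 0.564. Neighbouring bins are not independent, and the background rests on control reads that may come from the same library as the IgG2a peaks. The lists carry no measure of copy number, and its part was not tested.

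**Figure D5:**
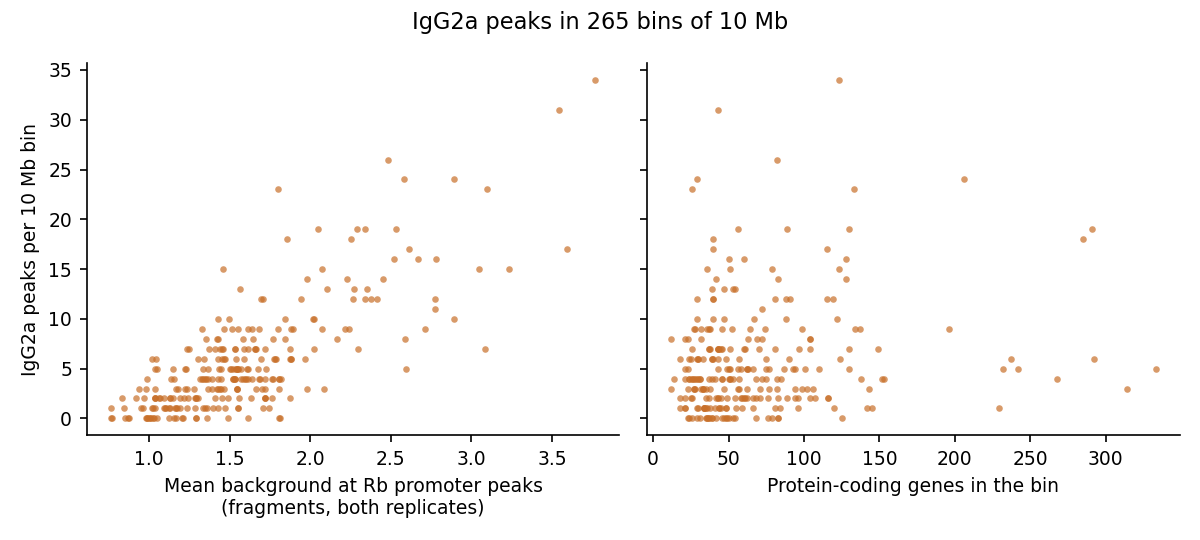
IgG2a peaks per bin of 10 Mb (vertical axis) against the mean background at Rb promoter peaks in fragments (left) and the number of protein-coding genes (right), with a point for each of 265 bins. IgG2a peaks rise with background (rho 0.705) and show little relation to gene number (rho 0.167).

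Several chromosomes changed density within their length. On chromosome 1 the part from 140 Mb held 215 IgG2a peaks (12.5% of the list, 1.97 per Mb), and the part below held 58 (0.414 per Mb). The mean background at Rb promoter peaks was 2.92 and 1.37 fragments on the same stretches, whereas Rb density was 4.015 and 3.168 per Mb. Chromosome 12 had 1.90 IgG2a peaks per Mb below 30 Mb and 0.562 above, with backgrounds of 2.678 and 1.655. Chromosome 17 had 1.68 from 50 Mb and 0.460 below, with backgrounds of 2.65 and 1.39, while Rb density was 6.194 and 6.35. Chromosome 7 had 1.30 IgG2a peaks per Mb below 50 Mb and 0.640 above, with Rb densities of 2.89 and 2.433. On chromosome 16 the density of both lists was lower above the boundary, from 1.95 below 40 Mb to 0.477 above for IgG2a and from 6.45 to 3.457 for Rb. These boundaries were set after the values had been seen.

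In fixed bins of 1 Mb, IgG2a peaks were sparse. Of 3044 bins, 1083 (35.6%) held an IgG2a peak and 33 held 5 or more, compared with 1995 and 1998 bins with a peak and 589 and 573 bins with 5 or more for Rb. The densest 1% of bins (31 bins, ranked within each list) held 11.02% of IgG2a peaks and 9.68% and 9.69% of Rb peaks. IgG2a was higher by 1.33 percentage points. It was lower by 4.29 points (11.02% against 15.55% and 15.08%) when each Rb list was cut to its 1724 peaks of highest −log10 q. That is the length of the IgG2a list, which was kept whole with its weak peaks. The densest IgG2a bins held 2.95% and 2.94% of Rb peaks, and the densest bins of Rb replicates 1 and 2 held 3.02% and 3.13% of IgG2a peaks. The densest IgG2a bins had 15.3 genes and 1.80 times the mean Rb background on average, those of Rb 41.35 and 40.03 genes and 1.16 and 1.18 times. The variance of the count over its mean was 1.81 for IgG2a and 6.003 and 5.966 for Rb. For clustered counts this ratio rises with the mean per bin, which was 0.566 for IgG2a and 2.731 and 2.684 for Rb. The ratios therefore do not rank the lists by clustering.

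The 8 bins with 7 or more IgG2a peaks included 5 on chromosome 1. The densest, chromosome 16 at 33 to 34 Mb, held 12 IgG2a peaks, 11 of them in repeated windows, and no Rb peak. Chromosome 1 at 2 to 3 Mb held 9, of which 8 were in repeated windows, with a background near the genome mean (0.958 times). Chromosome 11 at 67 to 68 Mb followed with 8 peaks, 3 in repeated windows, and 19 Rb peaks in each replicate at 3.17 times the mean background. By contrast, the 7 peaks on chromosome 1 at 209 to 210 Mb were all outside repeated windows, at 2.575 times the mean background. Of the genes in the lists by function given below, ELF3, an epithelial transcription factor, was the one that lay in the 10 densest bins, on chromosome 1 at 202 to 203 Mb, which was 1 of 11 bins tied at 6 peaks.

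Chromosome 11 from 67 to 71 Mb contains CCND1, the gene of cyclin D1, and is a region commonly amplified in breast cancer. It held 14 IgG2a peaks (0.812%, interval 0.445 to 1.36%) and 39 peaks in each Rb list (0.469% and 0.477%). IgG2a density was 3.50 peaks per Mb there, 0.252 on the rest of the chromosome and 0.569 over all chromosomes. Rb density was 9.75, compared with 2.88 and 2.78 on the rest of the chromosome. The median background at Rb peaks was 4.36 and 4.69 fragments, 3 times the median of each list, and at IgG2a peaks it was 2.25, 3.69 times its median. Rb pileup was also high, with medians of 31 and 29, and the median folds of 6.40 and 5.78 lay below the list medians of 6.93 and 6.86. The share of IgG2a peaks in the region fell below that of Rb when only non-promoter peaks were counted (0.709% against 0.757% and 0.776%). It also fell below it at a −log10 q of at least 5 (0.422% against 0.501% and 0.548%). At this cut the IgG2a share rested on the NDUFV1 promoter peak alone (−log10 q 5.075), among 237 IgG2a peaks.

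No IgG2a peak and no consensus Rb peak overlapped the promoter of CCND1. The IgG2a peak at chr11:69587461-69587612, with a fold of 4.63, lay at −53666 bp from its start site, and the LTO1 promoter peak described below lay nearer, on the other side. Of the 58 protein-coding genes that start in the region, 4 had an IgG2a promoter peak and 32 an Rb consensus promoter peak. LTO1, which acts in ribosome assembly, had an IgG2a pileup of 12 and Rb pileups of 23 and 20, with Rb folds of 2.904 and 3.531. NDUFV1, a subunit of respiratory complex I, had 17 with IgG2a and 31 and 37 with Rb. PPFIA1, a scaffold protein of cell adhesion, had 11 with IgG2a and 36 and 44 with Rb, at different start sites of the gene. FGF4, a growth factor, had 16 with IgG2a and no Rb consensus peak.

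Across the genome, 340 of 19618 protein-coding genes (1.73%) had an IgG2a peak at a promoter, 6667 (34%) had an Rb consensus peak, and 149 (0.76%) had both. Of 70 cell cycle genes, 3 had an IgG2a peak (4.29%, interval 0.8927 to 12.02%) and 63 an Rb consensus peak. These were CCNB1, the cyclin that drives entry into mitosis, KIF11, a spindle motor, and TYMS, which makes thymidylate. CCNB1 had 7 fragments with IgG2a and 17 and 21 with Rb. TYMS had 8 with IgG2a and 60 and 68 with Rb. At KIF11 the IgG2a peak of 6 fragments lay at another start site than the Rb consensus peak of 28 and 35, and Rb replicate 2 alone had a peak of 15 fragments beside it.

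None of 59 oestrogen-response genes had an IgG2a promoter peak, where a count of 0 leaves an upper bound of 6.06%, and 19 had an Rb consensus peak. The counts were 0 and 11 of 25 luminal factor genes, 0 and 13 of 20 immediate early genes, and 0 and 25 of 33 Rb partner genes. Of 78 ribosomal protein genes, 4 had an IgG2a peak, RPL14, RPL38, RPLP1 and RPS23, with pileups of 6, 8, 6 and 9, and 27 had an Rb consensus peak, RPL14 among them and the other 3 not, although Rb replicate 1 alone had a peak of 12 fragments at RPLP1. Of 59 genes of amplicons common in breast cancer, 4 had an IgG2a peak and 34 an Rb consensus peak, with TRIM37, a ubiquitin ligase on chromosome 17, at 8 fragments with IgG2a and 70 and 74 with Rb. Among 39 HOX genes, HOXA4 had an IgG2a peak of 9 fragments and no Rb consensus peak. The intervals of these IgG2a shares all included 1.73%, apart from breast amplicon genes, with an interval of 1.878 to 16.46%, and the genes at chromosome 11 from 67 to 71 Mb, with 1.91 to 16.7%. The breast amplicon genes include 3 of the 4 genes at chromosome 11, and neighbouring genes are not independent. Rb consensus shares of oestrogen-response and ribosomal protein genes, 32.2% and 34.6%, lay near the 34% of all protein-coding genes. The Rb share was 90% of cell cycle, 44% of luminal factor, 65% of immediate early and 75.8% of Rb partner genes. It was 57.6% of breast amplicon genes and 2.56% of HOX genes.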

How the data were processed

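CUT&RUN peak lists of 3 libraries were compared, grouped by their titles. According to the methods of the study, trimmed reads had been mapped by the authors to hg38 (Bowtie2 2.3.4.1). Mitochondrial and blacklisted reads were dropped and duplicates were retained. MACS2 2.2.7.1 called the peaks of each library at a q of 0.05, those of the Rb antibody against a matched IgG control. The control of the IgG2a list is not given in the sources used here. Replicates were not pooled. For each peak the deposited lists give a fold enrichment (a ratio to background), a −log10 p, a −log10 q and a score made from the −log10 q by the authors' peak caller. The lists hold no read totals.

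Whole-number pileups and backgrounds were recovered from fold and −log10 p, and no recovered −log10 p missed the listed one by more than 0.00551. The recovery was tested on simulated data, where the pileup of 400 of 400 peaks was recovered. Fragment totals are estimates that take the narrowest peak as the fragment length and 2700000000 bp as the genome size, so depth is known only roughly. Peaks were annotated with GENCODE 44, and sequence was read from hg38, with Python 3.11.15, numpy 2.4.6, pandas 2.3.3 and scipy 1.17.1. Consensus Rb peaks were called in both replicates, and overlaps needed at least 1 bp. No test was made between antibodies. Shares carry exact binomial intervals, and Rb values the spread of the replicates.

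Named peaks were the 10 highest by −log10 q in each set, the 10 densest bins of 1 Mb, listed genes with an IgG2a promoter peak, and CCND1 with its region. E2F1 and the 5S ribosomal RNA cluster were named after their values were seen. The members and gene lists were chosen with earlier results of these data known. Alternatives were a stricter q, lists of equal length, other promoter and bin definitions, joined peaks, other overlaps and leaving out each Rb replicate. Decoy and unplaced sequences were counted but not annotated. The other lists of the series were used only for peak counts, overlaps and the share of peaks off the chromosomes.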

Additional observations from a re-analysis of the deposited data

How the results depend on the processing

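With 1 IgG2a library and no read totals, differences between the antibodies have no replicate check on the control side, and the depth behind each list is an estimate. No paired analysis was possible because IgG2a has a single library and the results come from no test. Without each Rb replicate in turn, the peak number ratio was 4.74 to 4.823, the width ratio 2.773 to 2.86 and the fold ratio 1.421 to 1.436. The differences were 33.86 to 33.88 points for off-chromosome peaks, 67.49 to 67.59 for promoters, 0.4736 to 0.4779 for CpG, 1.328 to 1.338 for densest bins and 0.3348 to 0.343 for chromosome 11. Overlap was 1.138 to 1.167% of Rb and 5.336 to 5.626% of IgG2a peaks.

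At a −log10 q of at least 5, the peak number ratio was 24.95, the width ratio 2.509 and the fold ratio 1.108. The off-chromosome, promoter, CpG and densest-bin differences were 70.89, 79.52, 0.4712 and 22.28, and chromosome 11 turned to −0.1026. The overlaps were 0.04035% and 1.266%, and 24 genes had an IgG2a promoter peak. Lists of equal length kept the whole IgG2a list and only the Rb peaks of highest −log10 q, so strong Rb peaks met all IgG2a peaks. With them the width and fold ratios were 4.952 and 3.532. The promoter, CpG and chromosome 11 differences were 73.14, 0.487 and 0.232, and densest bins turned to −4.292. Joining nearby peaks gave a ratio of 4.573, and leaving out decoys a difference of 14.55. The promoter difference was 67.19 within 500 bp of a start, 63.9 with all start sites, 66.75 by summit and 67.66 without chromosome 11 from 67 to 71 Mb. The CpG difference was 0.4346 over whole peaks, 0.06053 at promoters and 0.425 elsewhere. Densest bins gave 0.1232 in bins of 5 Mb, 0.9938 when shifted and 1.202 without the chromosome 11 region. Chromosome 11 turned to −0.05718 outside promoters. A reciprocal overlap of 50% gave 0.09031% and 0.9281%. With only non-repeated windows, an alternative chosen after seeing the data, the promoter, CpG, densest-bin and chromosome 11 differences were 62.96, 0.4985, 1.202 and 0.3454. The causes were not tested.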
